A study of Mus musculus with 12 samples.

Results

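The high-affinity receptor for IgE and the genes that make and store histamine and serotonin were followed as 10 genes in quiescent and cycling CML stem/progenitor cells, with and without imatinib. These were Fcer1a, Ms4a2 and Fcer1g (the receptor subunits), Cd200r3 (a further surface receptor), Hdc, Slc18a2 and Srgn (histamine synthesis and granule storage), Tph1 and Slc6a4 (serotonin synthesis and uptake) and Mitf (a transcription factor), out of 46103 genes listed. They were chosen from what is known of mast cells and basophils, with their levels in these populations already known, so that differences between the populations are given as a description. Counts of these genes past a threshold there are printed beside those of all genes and are not a test of the difference. RNA was sequenced from 12 libraries of 100 sorted cells, 3 for each of 4 groups. The cells came from bone marrow and spleen of mice with a CML-like disease. Marrow of female mice aged 6 to 12 weeks and pretreated with 5FU was transduced with human BCR-ABL1 and transplanted, with normal marrow cells, into lethally irradiated C57BL/6 mice. The donors carried a Cre-inducible G0 marker (G0M, mVenus fused to a p27 mutant without inhibitory activity on Cdk) in the Rosa26 locus and Vav1-Cre, which is active in blood cells. DP cells (G0M+CD27+, quiescent) and SP cells (G0M-CD27+) were sorted from the BCR-ABL1+ lineage-negative Sca1+ c-Kit+ fraction of vehicle-treated mice, and IMDP and IMSP cells were the same populations after oral imatinib (40 mg/kg, which blocks BCR-ABL1 kinase activity) once a day from day 10 after transplantation. Nothing in the sources used here says that the libraries of a group came from separate mice, so that the errors and p values below measure the spread between libraries.

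FcεRI, the high-affinity IgE receptor of mast cells and basophils, holds an α chain that binds IgE, a β chain that amplifies the signal and a dimer of γ chains that carry it into the cell. When antigen crosslinks receptor-bound IgE, the kinases LYN and SYK are activated and the granules are released. Histamine is made from histidine by HDC, loaded into granules by the vesicular monoamine transporter SLC18A2 and held there on the proteoglycan serglycin. Mast cells and basophils arise from myeloid progenitors, and an excess of basophils is a known feature of CML.

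Expression is given as RPKM, reads scaled by transcript length and library total, which allows levels of different genes to be compared. The total behind the RPKM was 11.4 to 20.6 M reads per library, so that 1 read on a transcript of 1 kb equals 0.0486 to 0.088 RPKM. The cell sort was visible in the RNA. Mki67, a gene of cycling cells, was at 14.7 ± 5.70 (SD, n = 3) RPKM in DP and 54.2 ± 3.42 in SP cells, and at 8.16 ± 1.67 in IMDP and 61.1 ± 8.39 in IMSP cells. Kit, Ly6a (Sca1) and Cd27 were present in all 12 libraries. Libraries numbered 1 to 6 in the labels all came from imatinib-treated mice and 7 to 12 all from vehicle-treated mice, so that treatment and the order of the libraries cannot be told apart. Each library is named by its group and replicate number.

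Of the 10 genes, 8 held a GATA motif (AGATAA, in which the first base may be a T and the last a G, on either strand) within the 250 bases before at least 1 of their RefSeq transcription starts. Counted by windows, the motif was in 9 of 14 windows of these genes and in 26.5% of the 32851 such windows of all genes. Fcer1g and Srgn had none. An E-box of the kind bound by MITF (CACGTG, in which the third base may be a T, on either strand) was in the windows of Fcer1a and Slc6a4, and in 17.6% of all windows. The motif searches do not overlap each other, and a match is a match of letters and not a bound site. A window of Slc18a2 and a window of Mitf held 2 GATA matches each and are not shown. Those shown are of 5 other genes, whose levels varied together across libraries or which held several matches. They are written 5′ to 3′ on the strand of the gene and up to the base before the start (GRCm38.p6, RefSeq), with GATA and E-box matches in capitals. They lie at chr1:173227230-173227479 (Fcer1a, minus strand), chr19:11623720-11623969 (Ms4a2, minus strand), chr2:126618679-126618928 (Hdc, minus strand), chr16:44943428-44943677 (Cd200r3, plus strand) and chr11:76998347-76998596 (Slc6a4, plus strand).
Fcer1a: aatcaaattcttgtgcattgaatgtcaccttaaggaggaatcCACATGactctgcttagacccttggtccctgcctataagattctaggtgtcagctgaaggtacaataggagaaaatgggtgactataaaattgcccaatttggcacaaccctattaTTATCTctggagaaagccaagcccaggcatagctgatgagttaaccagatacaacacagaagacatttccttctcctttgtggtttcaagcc
Ms4a2: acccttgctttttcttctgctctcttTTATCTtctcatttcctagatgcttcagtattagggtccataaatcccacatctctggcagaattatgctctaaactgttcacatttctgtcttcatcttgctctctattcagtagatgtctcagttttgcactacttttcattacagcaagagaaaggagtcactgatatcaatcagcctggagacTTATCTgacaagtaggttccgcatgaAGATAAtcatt
Hdc: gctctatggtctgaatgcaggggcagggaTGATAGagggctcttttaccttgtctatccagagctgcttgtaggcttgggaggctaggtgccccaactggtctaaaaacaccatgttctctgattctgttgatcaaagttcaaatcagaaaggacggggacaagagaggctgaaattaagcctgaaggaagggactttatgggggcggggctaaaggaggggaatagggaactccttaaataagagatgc
Cd200r3: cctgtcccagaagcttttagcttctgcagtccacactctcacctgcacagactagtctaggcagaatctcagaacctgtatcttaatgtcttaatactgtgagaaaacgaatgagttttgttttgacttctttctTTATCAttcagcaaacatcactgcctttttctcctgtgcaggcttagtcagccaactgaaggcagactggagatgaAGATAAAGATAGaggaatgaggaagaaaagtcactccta
Slc6a4: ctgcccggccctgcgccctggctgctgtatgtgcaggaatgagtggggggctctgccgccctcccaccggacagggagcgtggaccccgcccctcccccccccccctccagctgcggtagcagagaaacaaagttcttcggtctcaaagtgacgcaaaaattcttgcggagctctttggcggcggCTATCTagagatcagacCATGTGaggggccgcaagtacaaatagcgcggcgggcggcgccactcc
The Fcer1a window holds a GATA match that begins 92 bases and an E-box that begins 208 bases before the start. The Ms4a2 window holds 3 GATA matches, which begin 224, 37 and 11 bases before the start. The Cd200r3 window also holds 3, of which the ones 39 and 33 bases before the start adjoin. In the Hdc window the only GATA match begins 221 bases before the start. GATA2, which is required for mast cell and basophil development, was expressed in all groups, with Gata2 at 16.9 ± 2.52 RPKM in DP and 10.8 ± 3.88 in SP cells and, after imatinib, at 17.1 ± 5.04 in IMDP and 10.5 ± 6.99 in IMSP cells. Gata1 was at 5.36 ± 2.03, 4.44 ± 1.45, 1.89 ± 1.20 and 2.54 ± 2.51 RPKM in the same order.

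Fcer1a, the gene of the IgE-binding α chain (GRCm38 chromosome 1, 173221284 to 173227214, minus strand), was expressed in quiescent cells above all, but unevenly between libraries. In DP cells it was at 21.2, 0.372 and 1.57 RPKM in libraries 1, 2 and 3, and in IMDP cells at 22.2, 4.43 and 0.63. In SP cells it was at 0.283, 0 and 0.144 RPKM, and in IMSP cells at 1.21, 0.0853 and 0.288. The 3 DP libraries all lay above the 3 SP libraries, whereas the lowest IMDP library lay below the highest IMSP library. Library 1 of each quiescent group stood far above the others, with 343 reads in DP1 and 296 in IMDP1 against 6 and 24 in the other DP and 68 and 11 in the other IMDP libraries. On the scale of log2(RPKM + 0.1) the difference was 3.61 ± 1.40 (SE) for DP against SP and 3.20 ± 1.40 for IMDP against IMSP. With DP1 and IMDP1 left out, a choice made after seeing the values, these became 2.08 ± 1.09 and 2.00 ± 1.09. Levels with and without imatinib overlapped in both populations. The log2 difference was 0.71 ± 1.40 for IMDP against DP (limma, adjusted p = 0.811, exact permutation p = 0.7, two-sided) and 1.11 ± 1.40 for IMSP against SP (adjusted p = 0.902, exact permutation p = 0.4).

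Ms4a2 (chromosome 19, 11615523 to 11623719, minus strand), which codes for the signal-amplifying β chain, had a lower mean level in DP cells than the other receptor chains. It was at 1.88, 0.486 and 1.94 RPKM in DP cells and at 0.875, 0.592 and 0.668 in SP cells. After imatinib it was at 2.87, 0.814 and 0.0408 RPKM in IMDP cells and at 0.177, 0.244 and 0.0257 in IMSP cells. Quiescent and cycling cells overlapped under both treatments, with log2 differences of 0.73 ± 0.93 and 1.67 ± 0.93. With a library left out, that of IMDP against IMSP ranged from 0.65 (without IMDP1) to 2.85 (without IMDP3). The 3 IMSP libraries, with 18 reads in all, lay below the 3 SP libraries, with 107. The log2 difference of IMSP against SP was -1.81 ± 0.93, which did not pass the test across all genes (limma, adjusted p = 0.632), and the exact permutation p of 0.1 is the smallest that 3 against 3 libraries allow. IMDP against DP gave -0.88 ± 0.93 (limma, adjusted p = 0.629, exact permutation p = 0.7), with IMDP3 the low library. The difference between the imatinib effects in quiescent and cycling cells was 0.93 ± 1.32 (limma, adjusted p = 0.826).

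Fcer1g (chromosome 1, 171229572 to 171234365, minus strand) codes for the γ chain, which other Fc receptors and myeloid receptors share, and was at 3.07 RPKM or more in every library. It was at 20.3, 11.1 and 9.25 RPKM in DP and at 8.94, 7.79 and 7.11 in SP cells. It was at 10.4, 3.88 and 9.60 RPKM in IMDP and at 9.17, 3.07 and 21.8 in IMSP cells. DP libraries lay above SP libraries with a narrow gap, by 0.68 ± 0.58 on the log2 scale, and the imatinib groups overlapped, at -0.22 ± 0.58. The highest value of all came from cycling cells, in IMSP3. In SP cells the mean of Fcer1g was 7.95 ± 0.923 (SD, n = 3) RPKM where that of Fcer1a was 0.142 ± 0.141, and in DP cells the means were 13.5 ± 5.91 and 7.73 ± 11.7. Imatinib gave -0.80 ± 0.58 in quiescent cells (limma, adjusted p = 0.465) and 0.11 ± 0.58 in cycling cells (limma, adjusted p = 0.981).

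Cd200r3 (chromosome 16, 44943678 to 44981380, plus strand), an activating receptor of the CD200R family on mast cells and basophils, was low but separated the populations under both treatments. It was at 3.24, 0.27 and 0.872 RPKM in DP cells, from 421, 35 and 107 reads, and at 1.31, 0.689 and 0.064 in IMDP cells, from 140, 85 and 9 reads. SP cells had 4 reads in 1 library and none in the other 2, and IMSP cells had 2, 0 and 4 reads. All quiescent libraries lay above all cycling libraries of the same treatment. Cd200r3 did not reach 1 RPKM in 3 libraries and was not in the main test. In the fit without that filter the log2 difference was 3.31 ± 0.82 for DP against SP and 2.29 ± 0.82 for IMDP against IMSP, sizes that depend on the 0.1 added before the logarithm. IMDP against DP was -0.91 ± 0.82 in the same fit (limma, adjusted p = 0.637).

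**Figure D1:**
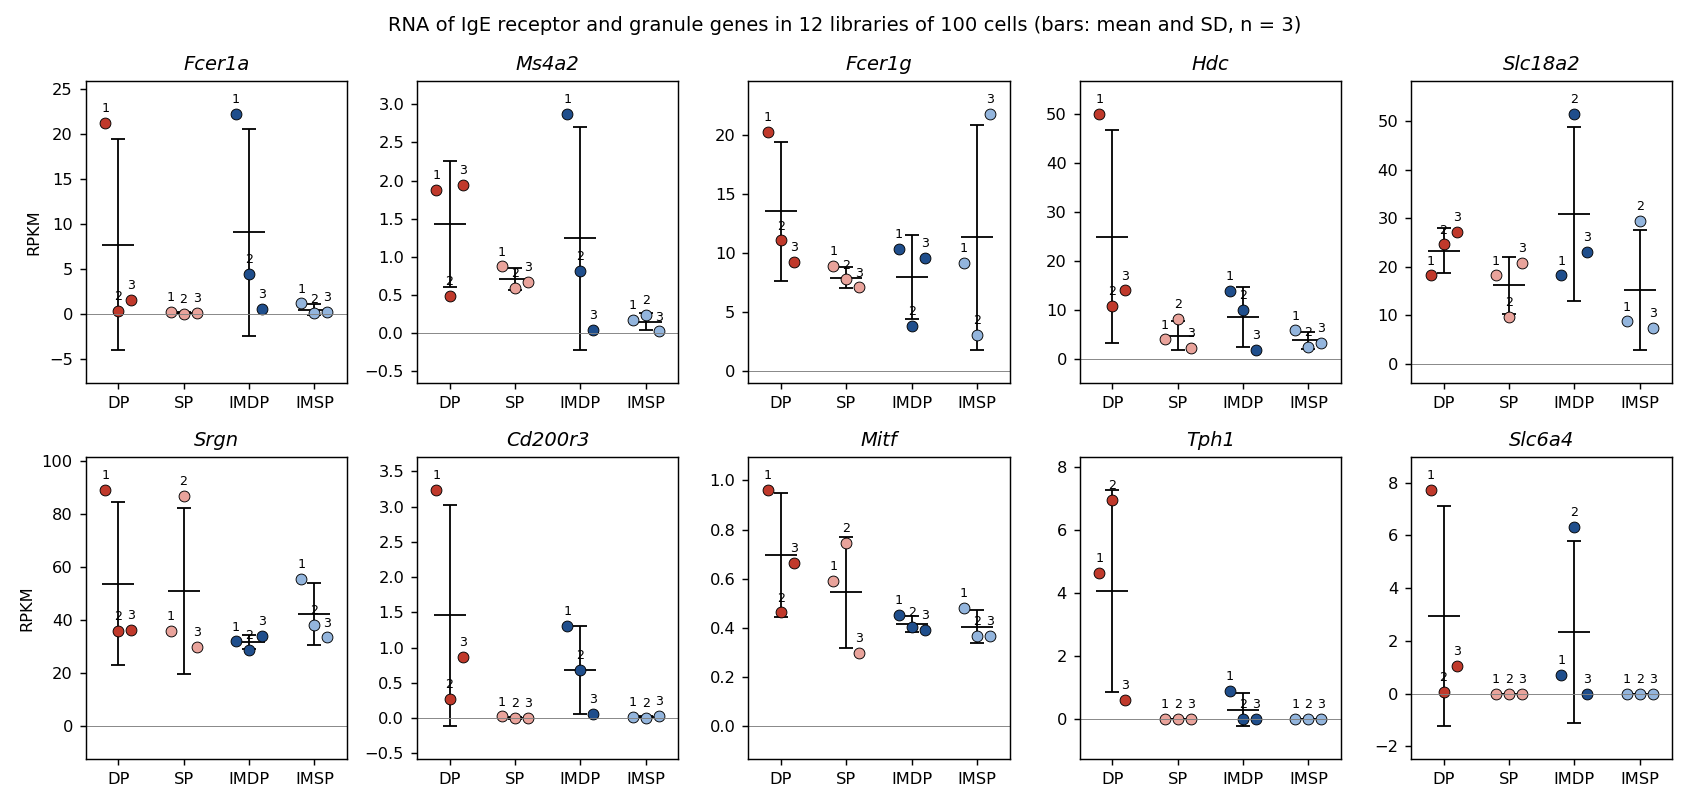
RPKM of the 10 genes (vertical axes, a separate linear scale in each panel) in DP, SP, IMDP and IMSP cells (horizontal axes). Points are libraries, with the replicate number above each, and bars give the mean and SD of 3 libraries. Fcer1a reached 21.2 RPKM in DP1 and 22.2 in IMDP1, Hdc 49.9 in DP1, and Tph1 and Slc6a4 were at 0 in all 6 SP and IMSP libraries.

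Hdc (chromosome 2, 126593667 to 126619299, minus strand), the enzyme that makes histamine, was higher in all DP than in all SP libraries. It was at 49.9, 10.7 and 13.9 RPKM in DP and at 3.89, 8.01 and 2.19 in SP cells. After imatinib it was at 13.8, 9.99 and 1.80 RPKM in IMDP and at 5.73, 2.32 and 3.13 in IMSP cells. IMDP3 was below all 3 IMSP libraries. The log2 difference was 2.22 ± 0.76 between DP and SP cells and 0.85 ± 0.76 between IMDP and IMSP cells, and 1.55 ± 0.69 and 0.29 ± 0.69 without DP1 and IMDP1. Mean levels in quiescent cells were 24.8 ± 21.8 (SD, n = 3) RPKM with vehicle and 8.53 ± 6.12 with imatinib. The log2 difference of IMDP against DP was -1.61 ± 0.76 and did not pass (limma, unadjusted p = 0.0559, adjusted p = 0.257, exact permutation p = 0.2). It ranged from -2.16 to -0.73 with a library left out (-0.73 without IMDP3, -0.93 without DP1). Across all settings tried, those with a library left out included, its adjusted p ranged from 0.135 (limma, without IMDP1) to 0.644 (limma, without DP1). In cycling cells the difference was -0.23 ± 0.76 (limma, adjusted p = 0.970), and the difference between these effects was -1.38 ± 1.07 (limma, adjusted p = 0.666).

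Slc18a2 (chromosome 19, 59260896 to 59296012, plus strand), the transporter VMAT2 that loads histamine and serotonin into granules, was expressed in all libraries at 7.31 RPKM or more. It was at 18.2, 24.6 and 27.1 RPKM in DP and at 18.2, 9.58 and 20.8 in SP cells. It was at 18.2, 51.5 and 23.0 RPKM in IMDP and at 8.71, 29.4 and 7.31 in IMSP cells. Unlike Hdc and Fcer1a, it was not high in DP1, and library 2 was the highest of both imatinib groups. The groups overlapped in each comparison, with log2 differences of 0.58 ± 0.51 for DP against SP and 1.17 ± 0.51 for IMDP against IMSP. Within pairs of libraries with neighbouring numbers it was higher in the quiescent library of 6 of 6, and with these pairs as a block the SE of both differences was 0.17. Imatinib gave 0.28 ± 0.51 in quiescent and -0.31 ± 0.51 in cycling cells (limma, adjusted p = 0.796 and 0.931).

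Srgn (chromosome 10, 62493833 to 62527451, minus strand) codes for serglycin, the proteoglycan core of granules in mast cells and other blood cells, and was the most highly expressed of the 10 genes in each group mean. It was at 89.1, 35.7 and 36.1 RPKM in DP and at 35.8, 86.8 and 29.7 in SP cells. It was at 31.9, 28.8 and 34.0 RPKM in IMDP and at 55.6, 38.0 and 33.4 in IMSP cells. Its level did not follow quiescence, since DP1 and SP2 shared the highest values and the log2 difference was 0.10 ± 0.41 with vehicle and -0.39 ± 0.41 with imatinib. All IMDP libraries lay below all DP libraries, by -0.62 ± 0.41 (limma, adjusted p = 0.416, exact permutation p = 0.1, the smallest possible). Without DP1 and IMDP1 this became -0.20 ± 0.43.

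All reads of Tph1 and Slc6a4 came from quiescent libraries. Tph1 (chromosome 7, 46644641 to 46672537, minus strand), the rate-limiting enzyme of serotonin synthesis outside the brain, was at 4.62, 6.95 and 0.607 RPKM in DP cells, from 347, 521 and 43 reads. It was at 0.889 RPKM in IMDP1, from 55 reads, and at 0 in IMDP2, IMDP3 and all SP and IMSP libraries. With 3 reads per library as the limit that a count of 0 allows, which covers counting error only, Tph1 was at least 107-fold higher in DP than in SP cells, and at least 68.9-fold without DP2. For IMDP against IMSP the bound was 6.48-fold and rested on IMDP1 alone. In the fit without a filter on low values, IMDP against DP was -3.74 ± 0.93 on the log2 scale, which did not pass across all genes (limma, unadjusted p = 0.00209, adjusted p = 0.109), and IMDP1 lay above DP3 (exact permutation p = 0.2). The size of this value depends on the 0.1 added to libraries at 0. The difference between the imatinib effects in quiescent and cycling cells was -3.74 ± 1.32 in that fit (limma, unadjusted p = 0.0163, adjusted p = 0.640). It repeats the IMDP against DP value, since all SP and IMSP libraries were at 0.

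Slc6a4 (chromosome 11, 76998603 to 77032340, plus strand), the plasma membrane transporter that takes up serotonin, was at 7.73, 0.0614 and 1.06 RPKM in DP cells, from 378, 3 and 49 reads. It was at 0.719 and 6.31 RPKM in IMDP1 and IMDP2, from 29 and 293 reads, and at 0 in IMDP3. All 6 SP and IMSP libraries were at 0, which makes Slc6a4 at least 50.7-fold higher in DP than in SP cells and at least 33.4-fold higher in IMDP than in IMSP cells. Each bound rested largely on 1 library, and was 9.63-fold without DP1 and 5.13-fold without IMDP2. Both genes were high in DP1, but Tph1 was highest in DP2, where Slc6a4 had 3 reads, and at 0 in IMDP2, where Slc6a4 had 293. Slc6a4 was in the main test because 3 quiescent libraries reached 1 RPKM, and IMDP against DP was -0.49 ± 1.59 (limma, adjusted p = 0.891). Other genes of amine handling were at low levels. Ddc, the decarboxylase of the step to serotonin, had 19 reads in all DP, 6 in all SP, 5 in all IMDP and 1 in all IMSP libraries. Maoa, which degrades serotonin, was at 2.00 ± 0.275 RPKM in DP and 2.22 ± 0.268 in SP cells, with 1.53 ± 0.565 in IMDP and 1.60 ± 0.161 in IMSP cells, and Hnmt, which inactivates histamine, was at 0.633 ± 0.410, 0.778 ± 0.189, 0.998 ± 0.517 and 0.893 ± 0.856.

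Mitf (chromosome 6, 97807052 to 98021349, plus strand), a transcription factor of mast cells and melanocytes, was low in every library. It was at 0.962, 0.462 and 0.665 RPKM in DP and at 0.591, 0.744 and 0.297 in SP cells. It was at 0.452, 0.403 and 0.390 RPKM in IMDP and at 0.481, 0.365 and 0.365 in IMSP cells. The populations overlapped under both treatments, and the 3 IMDP libraries lay just below the 3 DP libraries. In the fit without a filter the log2 difference of IMDP against DP was -0.58 ± 0.36 (limma, adjusted p = 0.486, exact permutation p = 0.1, the smallest possible).

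**Figure D2:**
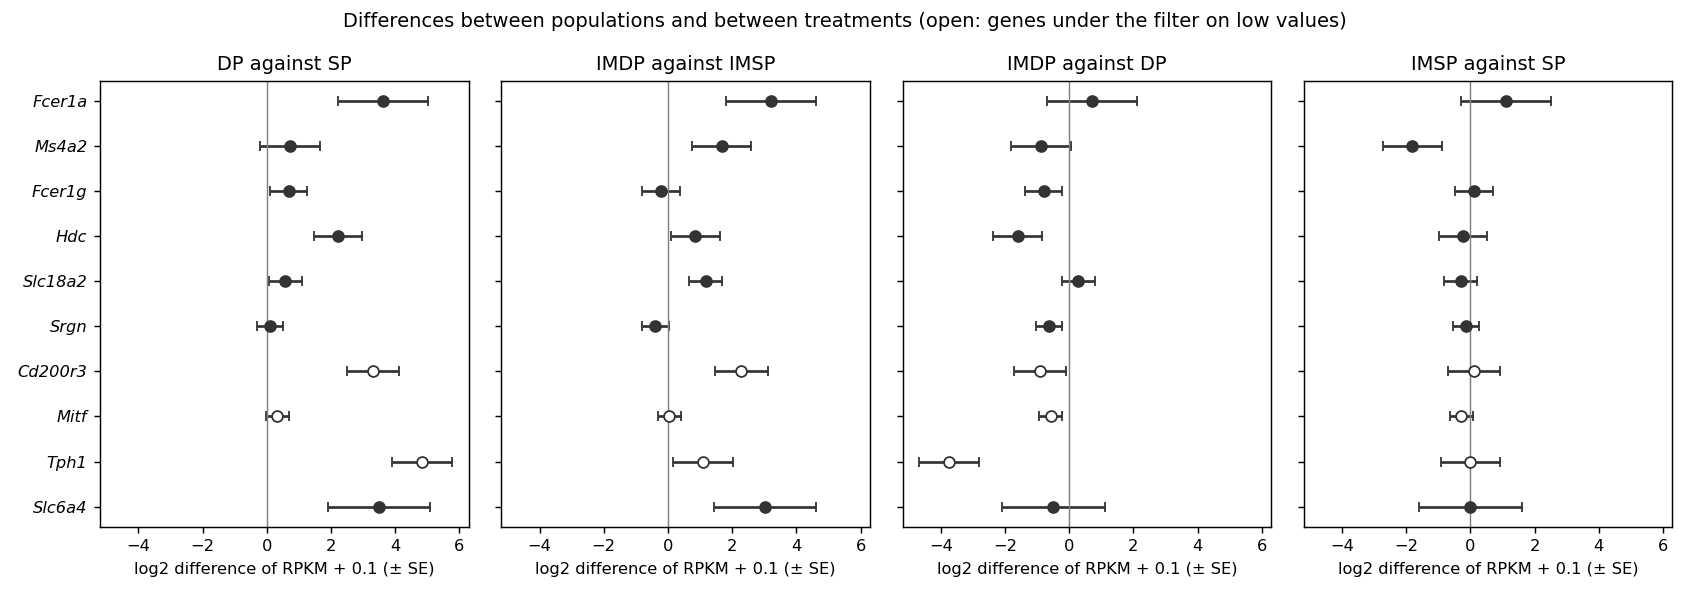
Log2 difference of RPKM + 0.1 with its SE (horizontal axes, 1 panel per comparison, 3 libraries per group) for the 10 genes (vertical axis). Filled points come from the main fit and open points from the fit without a filter on low values. Fcer1a was 3.61 higher in DP than SP and 3.20 in IMDP than IMSP cells, and sizes for Tph1 and Slc6a4 depend on the 0.1 added where a group is at 0.

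Across the 10 genes, 7 passed the filter of at least 1 RPKM in at least 3 libraries and were tested with limma among 10072 genes. Ms4a2 and Slc6a4 reached it through quiescent libraries alone, and Cd200r3, Mitf and Tph1 did not reach it. In DP against SP, 4 of the 7 (Fcer1a, Fcer1g, Hdc and Slc6a4) were higher without overlap between groups, where 9.68% of all tested genes were (12.7% were lower), and 0 passed an adjusted p of 0.05, where 2.26% of all genes did. At an unadjusted p under 0.05 there were 3 in limma, beside 13.2% of all genes, and limma-voom on the recovered reads also called 0. In IMDP against IMSP, 0 of the 7 were higher without overlap, where 6.21% of all genes were (32.8% were lower), and 0 passed by limma or limma-voom, where 25.6% of all genes did, with 2 at an unadjusted p under 0.05, beside 39.7% of all genes. With the replicate number as a block, 1 was past the threshold (Fcer1a), and with neighbouring library numbers as a block 2 were (Fcer1a and Slc18a2), as was 1 in DP against SP (Hdc). The replicate block was fitted over all 12 libraries, though replicate numbers pair the IMDP and IMSP libraries and not the DP and SP libraries. The median log2 difference of the 7 was 0.73 with vehicle and 1.17 with imatinib, beside -0.02 and -0.25 over all tested genes. These genes were selected with the values of this contrast known, so that the counts and calls in it, with or without a block, are no valid test and nothing is read from them.

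For imatinib, a comparison that the choice of the genes is not known to have used, 0 of the 7 tested passed limma in quiescent cells (IMDP against DP), where 0.367% of all genes did, and 0 did in cycling cells (IMSP against SP), where 0% of all genes did. Slc6a4 was at 0 in all SP and IMSP libraries, so its result in IMSP against SP was fixed in advance. Its difference of the imatinib effect between the populations repeats its IMDP against DP value. None of the 7 was below an unadjusted p of 0.05 in either comparison, beside 20.5% and 8.39% of all genes, and limma-voom called 0 in both. Only Srgn was lower without overlap in IMDP than DP cells, where 19% of all genes were, and only Ms4a2 in IMSP than SP cells, where 2.72% were. None was higher without overlap, where 4.58% and 11.1% of all genes were. The median log2 difference was -0.62 in quiescent cells, beside -0.17 over all genes, and -0.13 in cycling cells, beside 0.08. No difference of the imatinib effect between the populations passed for the 7 (limma, 0 adjusted, 0 at an unadjusted p under 0.05, 0 by limma-voom), where 0% of all genes passed and 9.3% were at an unadjusted p under 0.05. Standard errors of 0.41 to 1.59 on the log2 scale mean that changes of several fold in Fcer1a or Slc6a4 were not detectable with these libraries.

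The quiescent library was the higher of most pairs with neighbouring library numbers. Pairs of neighbouring numbers, such as DP1 and SP2, hold a quiescent and a cycling library of the same treatment and correlate in their deviations from the group means (0.43 to 0.65 across genes, which are not independent). Fcer1a, Slc18a2 and Cd200r3 were higher in the quiescent library of 6 of 6 pairs. Ms4a2, Fcer1g, Hdc and Mitf were higher in 5 of 6, and Srgn in 4 of 6. Tph1 was higher in 4 and at 0 in both libraries of 2, and Slc6a4 was higher in 5 and at 0 in both of 1. For Fcer1g, Hdc and Slc6a4 the remaining pair was that of IMDP3, which was the lowest of the quiescent libraries, or level with the lowest, for 6 of the 10 genes.

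**Figure D3:**
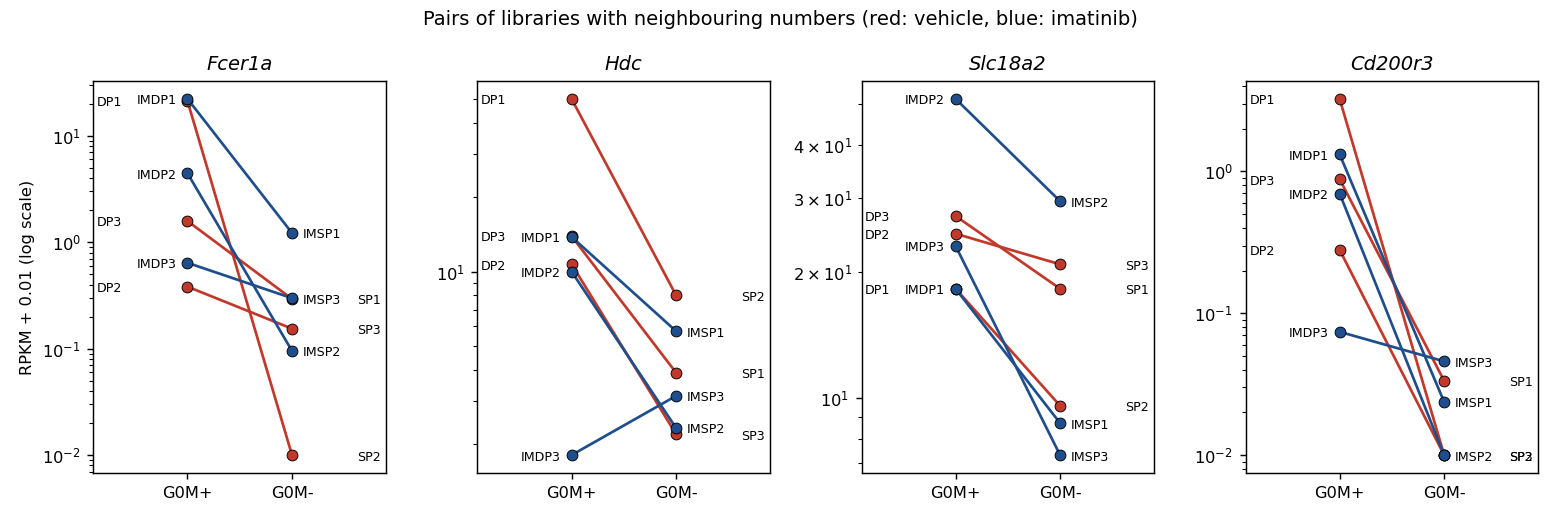
RPKM + 0.01 on a log scale (vertical axes) of Fcer1a, Hdc, Slc18a2 and Cd200r3 in the G0M+ and the G0M- library (horizontal axes) of 6 pairs with neighbouring library numbers, joined by lines (red, vehicle; blue, imatinib). All lines fall from G0M+ to G0M- except that of IMDP3 and IMSP3 for Hdc.

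The genes varied together across libraries in part. As Pearson's r of log2(RPKM + 0.1) over 12 libraries, which share groups and depth and are given as a description, Cd200r3 was close to Slc6a4 (0.91), Fcer1a (0.90) and Hdc (0.87). Fcer1a and Slc6a4 gave 0.82, and Hdc and Tph1 0.76. Slc18a2 was not close to Hdc (0.10) or Fcer1a (0.24) and ran against Fcer1g (-0.60). Srgn was closest to Mitf (0.79). DP1 was the highest of the 12 libraries for 5 genes and IMDP1 for 2. Among all tested genes outside the 10, those most like Hdc were Mcpt8 (r = 0.96), Rnf128 (0.87) and Prss34 (0.87). Mcpt8 and Prss34 are basophil granule proteases. Those most like Fcer1a were Akr1c18 (0.92), Ccl6 (0.90) and Grm6 (0.86), and those most like Ms4a2 were Acod1 (0.93), Esyt2 (0.87) and Nat6 (0.86).

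The basophil markers Mcpt8 and Prss34 and some proteases of mast cells were high in DP1 and IMDP1, as were Fcer1a, Hdc and Cd200r3. The 8 basophil markers summed to 135 to 332 RPKM in DP and 62.4 to 102 in SP cells, with 65.5 to 160 in IMDP and 44.4 to 69.5 in IMSP cells. Cd63 and Ier3 made up much of the SP sums, at means of 51.9 and 26.3 RPKM, beside 58.9 and 48.9 in DP cells. DP2 had a sum of 158 RPKM with Fcer1a at 0.372. Ccl3 and Itga2 were at 1.13 and 0.0151 RPKM in DP2, below SP1 at 6.77 and 0.15. Their means were higher in DP (22.1 and 0.709) than in SP cells (3.23 and 0.0931). Mcpt8, the basophil protease, was at 110, 19.9 and 31.8 RPKM in DP and at 3.37, 8.73 and 4.88 in SP cells, and Prss34 was at 34.1, 9.99 and 13.4 in DP cells and at 0 in 2 SP and all IMSP libraries. The 12 mast cell markers summed to 72.8 to 452 RPKM in DP and 111 to 468 in SP cells, with 17.8 to 168 in IMDP and 105 to 457 in IMSP cells, and held Ctsg, which neutrophil precursors also express, at means of 107, 223, 43.1 and 264 RPKM in that order. The mast cell tryptase Tpsab1 and the receptor Mrgprb2 were at 0 in all libraries. The chymase Cma1 was at 14.3, 28.5 and 5.46 RPKM in DP cells, at 25.6, 0.247 and 0 in IMDP cells and at 0 in all SP and IMSP libraries. Tpsb2, another mast cell tryptase, was above 0 in DP1 (8.13 RPKM) and IMDP1 (11.1) alone, which are the libraries with the highest Fcer1a, and Mcpt4 was at 2.52 and 13.2 RPKM there and at 0.129 or 0 elsewhere. Cpa3, the mast cell carboxypeptidase, was at 86.9 RPKM in DP1 and 35.4 in IMDP1, and at 1.72 to 10.1 in the other 10 libraries. In such samples, a change in the number of cells of a type and a change in RNA per cell cannot be told apart, and the part of mast cells or basophils in these values was not tested. The sort kept CD27+ cells and left out CD27- cells. From Giemsa staining, the paper describes the G0M+CD27- cells of the same fraction as mast-like.

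In imatinib-treated cells, Slc18a2 ran with markers of megakaryocytes, which also store serotonin, and with vehicle it did so less. The 14 megakaryocyte and platelet markers summed to 158 RPKM in IMDP2 and 74.0 in IMSP2, the libraries with the highest Slc18a2 (51.5 and 29.4 RPKM), and to 11.3 and 13.2 in IMSP3 and IMSP1, which had the lowest (7.31 and 8.71). DP1 had the largest sum, 166 RPKM, with Slc18a2 at 18.2. SP1 had a sum of 55.0 RPKM with Slc18a2 also at 18.2. DP2 and SP3 had smaller sums, 33.6 and 29.8, with Slc18a2 at 24.6 and 20.8. The summed level was 33.6 to 166 RPKM in DP and 16.5 to 55.0 in SP cells, with 25.6 to 158 in IMDP and 11.3 to 74.0 in IMSP cells. Slc6a4, which platelets use to take up serotonin, had its highest values in these libraries as well, DP1 and IMDP2, though IMSP2 had none. Erythroid markers, 9 in all, summed to 261 to 304 RPKM in DP and 73.9 to 177 in SP cells, with 88.4 to 441 in IMDP and 23.2 to 129 in IMSP cells. Neutrophil markers, also 9, ran the other way after imatinib, at 61.1 to 232 RPKM in IMDP and 421 to 1780 in IMSP cells, and overlapped with vehicle, at 51.3 to 1180 and 317 to 2200. The eosinophil genes Ear1 and Ear6 and the B cell factors Ebf1 and Pax5 were at 0 in all libraries. The lineage cocktail used in the sort, against CD5, CD11b, Gr-1, TER-119 and B220, would remove mature erythroid, neutrophil and B cells. How far it and the Sca1+ c-Kit+ gate removed megakaryocytes, mast cells or basophils was not tested. The part of any of these cell types in these values was not tested either.

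**Figure D4:**
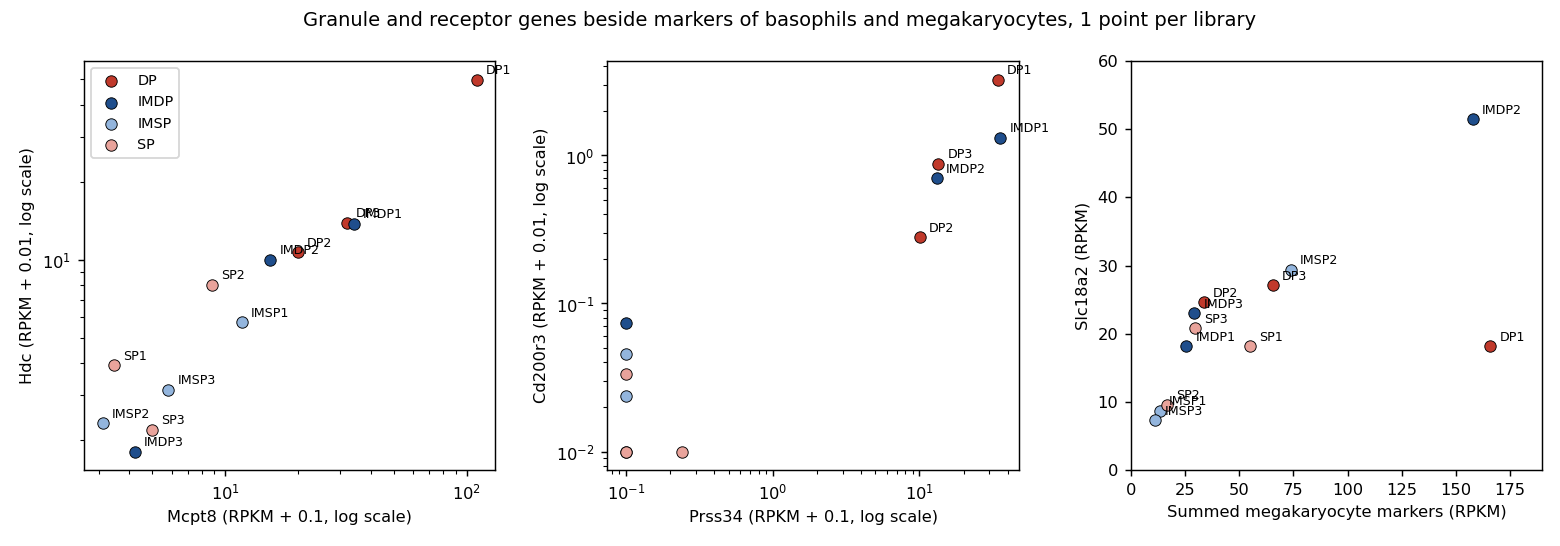
Left, Hdc against the basophil marker Mcpt8, and centre, Cd200r3 against the basophil marker Prss34 (both axes log, after adding 0.01 to the member and 0.1 to the marker). Right, Slc18a2 against the sum of 14 megakaryocyte and platelet markers (linear RPKM). Points are the 12 libraries, and those with Prss34 at or near 0 are left without a name. Hdc and Mcpt8 rise together to DP1 (49.9 and 110 RPKM), while DP1 has the largest megakaryocyte sum, 166 RPKM, without a high Slc18a2.

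Downstream and companion genes of the receptor, 141 genes in 6 lists, were mostly without a call. The lists were chosen with earlier results of these data known. Calls on their genes between the populations, here and below, are thus a description and not a valid test. Of the 110 tested, limma called 1 higher in DP than SP cells, where 2.26% of all genes were called, and 7 higher and 8 lower in IMDP than IMSP cells, where 25.6% were. For imatinib it called 0 in quiescent cells, 0 in cycling cells and 0 for the difference between these, as did limma-voom, with 13, 17 and 5 of the 110 at an unadjusted p under 0.05, beside 20.5%, 8.39% and 9.3% of all genes. The direction of the IMDP against IMSP calls depended on scaling. With each library scaled to the same median, 15 were called higher and 0 lower, and limma-voom gave the same split of 15 and 0. That scaling moved the median difference of all genes from -0.25 to 0.02, and the calls on all genes from 239 higher and 2342 lower to 635 and 925. The 7 genes called higher in RPKM were all among the 15 on the median scale, limma-voom left out Lilrb4a (adjusted p = 0.0692) and Pirb (adjusted p = 0.0572) of them, and none of the 8 lower calls held in either. The 15 calls rested on single libraries as well, with 1 call without IMSP1, 2 without IMDP2, 7 without IMDP3 or without IMSP3, and 24 without IMSP2.

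Among receptors that inhibit or accompany FcεRI, Lilrb4a was the gene that passed under both treatments in the main fit. Lilrb4a, an inhibitory receptor of mast cells and myeloid cells, was at 30.1 ± 24.7 RPKM in DP and 3.25 ± 2.14 in SP cells, 3.06 ± 0.65 higher on the log2 scale (limma, adjusted p = 0.0268). This call was lost without DP1, DP3, SP1 or SP2 and without the filter on low values. Lilrb4a was at 13.1 ± 9.85 in IMDP and 1.53 ± 0.781 in IMSP cells, 2.84 ± 0.65 higher (limma, adjusted p = 0.0105). By limma-voom this call was lost (adjusted p = 0.0692). Pirb, also inhibitory, and Cd200r1, the inhibitory relative of Cd200r3, were 2.13 ± 0.64 and 1.30 ± 0.38 higher in IMDP than IMSP cells (limma, adjusted p = 0.0306 and 0.0296). Fcgr2b, the inhibitory IgG receptor, had a log2 difference of -2.03 ± 0.63 there (limma, adjusted p = 0.0355), a call that was lost on the median scale. The list of 25 had 14 tested genes and a median log2 difference of 0.46 with vehicle and 0.36 with imatinib. Il1rl1, the IL-33 receptor of mast cells and basophils, was at 4.95 ± 4.18 RPKM in DP and 1.11 ± 0.625 in SP cells, with 1.48 ± 1.49 in IMDP and 0.14 ± 0.10 in IMSP cells.

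Of 28 tested genes of FcεRI signalling, 0 were called in DP against SP, beside 2.26% of all genes, and 3 in IMDP against IMSP, beside 25.6%, with a median log2 difference of 0.13 and -0.01, beside -0.02 and -0.25 over all tested genes. Lcp2 (the adaptor SLP-76) was at 12.9 ± 1.83 RPKM in IMDP and 8.33 ± 2.20 in IMSP cells, 0.65 ± 0.19 higher (limma, adjusted p = 0.0304), and stayed past the threshold on the median scale at 0.93. Lyn, the kinase that first phosphorylates the receptor, was at 8.96 ± 0.163 and 13.1 ± 2.38 RPKM (limma, log2 difference -0.53 ± 0.15, adjusted p = 0.0240), and Ptpn6, the phosphatase SHP-1, at 23.5 ± 1.45 and 31.2 ± 1.14 (-0.41 ± 0.11, adjusted p = 0.0231). On the median scale these became -0.25 and -0.13 and did not pass.

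Genes of granule building gave 1 call in each direction per list in IMDP against IMSP cells, where 25.6% of all genes were called. Of 20 tested genes of granule transport and fusion, Unc13d (Munc13-4, which primes granules for release) was at 10.6 ± 1.67 RPKM in IMDP and 6.63 ± 1.25 in IMSP cells, 0.67 ± 0.17 higher (limma, adjusted p = 0.0164), and Rab27a, which docks granules, had a value of -0.67 ± 0.23 (limma, adjusted p = 0.0498, and 0.226 on the median scale). Of 19 tested genes of heparin and proteoglycan synthesis, Ndst2, the sulfotransferase needed for mast cell heparin, was 0.42 ± 0.14 higher (limma, adjusted p = 0.0428), and Gusb, a lysosomal glucuronidase, was at 15.3 ± 2.73 RPKM in IMDP and 26.9 ± 3.5 in IMSP cells (limma, adjusted p = 0.0200, and 0.0797 on the median scale). Of 21 tested transcription factors of the lineage, Tal1 was 0.73 ± 0.25 higher (limma, adjusted p = 0.0469). Cebpb, Tfec and Cebpa had values of -1.07 ± 0.34, -1.32 ± 0.36 and -1.84 ± 0.63 (limma, adjusted p = 0.0399, 0.0208 and 0.0496). C/EBPα and C/EBPβ drive granulocyte and basophil programmes. The histamine and serotonin list had 8 tested genes of 19 and 0 calls by limma in any comparison, with a median log2 difference of -0.11 with vehicle and 0.02 with imatinib.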

How the data were processed

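RNA of 100 sorted cells per library was amplified, sequenced and mapped to GRCm38 by the authors, who deposited a table of RPKM for each library. CLC Genomics Workbench is named for mapping in the methods and other tools in the reporting summary, so which of them made the RPKM is not given in the sources used here. Since the RPKM move in steps worth a single read, whole reads, within 0.03 of a read, were obtained for 15880 of 15883 features above 0 in at least 3 libraries. Intervals and floors from reads cover counting error only, since PCR copies are not marked.

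Numbered copies of a gene were summed, which left 46103 of 48737 features as genes. The test was limma 3.58.1 (R 4.3.3), applied to log2(RPKM + 0.1) of the genes that reached 1 RPKM in 3 or more libraries, with 4 group means, a variance trend and Benjamini-Hochberg adjustment over 10072 genes (threshold 0.05). The authors used edgeR, per the labels. Since the deposited unit is RPKM, the main test was on a log scale, and limma-voom on the recovered reads was an alternative. Fold changes on this scale understate those of low genes. Single genes were also tested with exact permutations over libraries, two-sided. The 10 genes and the lists of companion genes and cell type markers were chosen with earlier results of these data known. Named companion genes are those past the threshold in a population comparison, up to 3 of each list with the smallest adjusted p. Fcgr2b, Cebpa, Gata1, Gata2, Il1rl1, Ddc, Hnmt and Maoa were named outside this rule after values were seen, as were the single mast cell, basophil and granulocyte markers. Alternatives changed the pseudocount, the filter, the scaling, the model, the block, the groups fitted and the libraries; leaving out DP1 and IMDP1 together was chosen after seeing the data. In imatinib-treated cells, replicate numbers pair the libraries (correlation of deviations from the group means 0.43, 0.65 and 0.46). Promoter windows came from RefSeq and positions from GENCODE. Tables and figures were made with Python 3.11.15, pandas 2.3.3 and matplotlib 3.10.9, and the scripts were tested on simulated data. The simulated counts had the median dispersion of these genes, a value adopted after a first run with a higher dispersion recovered few changes, so the test does not show what could be detected for genes as variable as the 10.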

Additional observations from a re-analysis of the deposited data

How the results depend on the processing

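None of the 7 tested genes, nor of the other 3 in the fit without a filter, passed in IMDP against DP, IMSP against SP or the difference between these under any alternative that could be run. The genes were chosen with the population values known, so that calls on them between populations are no test and only show how the count moved. In DP against SP, 1 passed without a filter on low values (Tph1) and 1 with neighbouring library numbers as a block (Hdc). In IMDP against IMSP, 1 passed with the replicate block (Fcer1a) and 2 with the library-number block (Fcer1a and Slc18a2), and leaving out each library in turn gave 0 to 1 (Ms4a2 without IMDP3, Slc18a2 without IMSP2). The library-number block could not be run for treatment, since each pair holds a single treatment, and the replicate block changed no other call on the 10 genes. In DP and SP cells the replicate numbers do not pair the libraries (correlations -0.19, -0.30 and -0.10).

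Calls on companion genes moved more. In DP against SP there were 2 with a pseudocount of 1, with median scaling, with limma-voom or with only these groups fitted, 0 without the filter, 10 with the library-number block and 0 to 2 with a library left out. In IMDP against IMSP there were 8 without the filter, 39 with the library-number block, 5 with only these groups fitted and 1 to 24 with a library left out. In IMDP against DP there were 0 to 1 with a library left out. The number of all genes called in IMDP against DP (37) was 2 with median scaling, 11 with limma-voom, 0 with only these groups fitted and 0 to 189 with a library left out. In DP against SP (228) it was 980 with the library-number block and 125 to 264 with a library left out. In IMDP against IMSP (2581) it was 1560 with median scaling, 1549 with limma-voom, 1553 with only these groups fitted, 2781 with the replicate block, 4446 with the library-number block and 902 to 2962 with a library left out.

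Directions of imatinib comparisons that changed under an alternative had adjusted p of 0.787 or more there (limma). Between populations, as a description, Fcer1g in IMDP against IMSP (-0.22) was 0.05 with median scaling, 0.09 with limma-voom, 0.22 without IMDP2 and 0.45 without IMSP3, and Srgn in DP against SP (0.10) was -0.33 without DP1, -0.06 without SP1 and -0.20 without SP3. With a library left out, the log2 difference of IMDP against DP ranged from -0.51 to 2.24 for Fcer1a (below 0 without DP2 or IMDP1), from -1.89 to 0.31 for Ms4a2 (above 0 without IMDP3), from -0.16 to 0.58 for Slc18a2 (below 0 without IMDP2) and from -1.99 to 1.01 for Slc6a4 (above 0 without DP1 or IMDP3, and 0.89 without both DP1 and IMDP1). That of IMSP against SP ranged from -0.56 to 0.83 for Fcer1g (below 0 without IMSP3), from -0.67 to 0.24 for Hdc (above 0 without IMSP2 or SP2), from -0.94 to 0.06 for Slc18a2 (above 0 without IMSP3) and from -0.43 to 0.34 for Srgn (above 0 without IMSP3 or SP2). The difference between these ranged from -1.62 to 1.13 for Fcer1a (above 0 without DP1, IMDP3, IMSP1 or SP2, and 0.10 with a pseudocount of 1), from -0.08 to 2.12 for Ms4a2 (below 0 without IMDP1) and from -1.99 to 1.01 for Slc6a4 (above 0 without DP1 or IMDP3, and 0.89 without both DP1 and IMDP1). The causes were not tested. Each group held 3 libraries of 100 cells, and Fcer1a, Slc6a4 and Tph1 differed many-fold between libraries of a group, which limits what a comparison with imatinib can detect.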
